A study of Mus musculus with 72 samples.

Results

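Pancreatic islets of C57BL/6J mice (a strain that the labels spell C56BL/6J) on a high-fat diet (HFD) were compared between day 33 and day 5 of the diet, with day 13 as the middle point. The members were chosen by the labels for strain and diet alone, which gave 12 of the 69 libraries with values in the series: 4 at day 5, 4 at day 13 and 4 at day 33. All 14604 genes of the deposited table were tested. The labels call the donors male mice of 8 weeks and do not say whether that was the age at the start of the diet or at the time of isolation, and they name no transgene or drug. Each library came from 120 to 150 hand-picked islets of 1 mouse that had spent a night in culture medium, so the spread behind each p-value is that between mice. The series holds 3 inbred strains, and libraries of C57BL/6J on regular chow (RC; 4 at day 5, 4 at day 13, 3 at day 33) and of DBA/2J and BALB/cJ on HFD (4 per strain at each of days 5 and 33) serve below as comparisons. Levels are log2 CPM, where CPM counts the reads of a gene relative to the size of the library.

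An islet is a small cluster of endocrine cells: beta cells secrete insulin, alpha cells glucagon, and delta and PP cells somatostatin and pancreatic polypeptide. Insulin lowers blood glucose and glucagon raises it. On a high-fat diet the demand for insulin grows over weeks, and C57BL/6J is a strain often used to follow that adaptation. Islets prepared from digested pancreas also carry acinar, endothelial, stellate and immune cells, and bulk RNA mixes all of them.

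Reads in genes numbered 20475594 to 26974401 in the 12 libraries. Between 11.5% and 21.8% of them came from Ins1 and Ins2, which encode insulin, and glucagon (Gcg) stood at 14.05 log2 CPM or more in each, so the endocrine label held. Markers of exocrine acinar cells were the cell type list that moved most with the day: the mean of 30 acinar markers ran from 4.02 to 6.11 log2 CPM at day 5, from 3.30 to 5.93 at day 13 and from 2.36 to 4.52 at day 33. The lowest of those means still lay above the floor of the table, -3.54 log2 CPM. In principal components of the 12 libraries, the first (19.9% of the variance) had day 33 replicate 1 at -24.1 and day 33 replicate 4 at 37.5, and the second (15.9%) had day 13 replicates 3 and 4 at 27.3 and 28.1 against -9.90 and -1.23 for replicates 1 and 2. Counts of called genes are given with and without them. The numbers in the sample titles do not overlap between days: they are lowest at day 5 and highest at day 13. What they count is not given in the sources used here, and for these groups title number and day cannot be told apart.

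Between day 5 and day 33 on HFD, 34 of 14604 genes passed the test (0.233%; limma, Benjamini-Hochberg adjusted p under 0.05), 15 higher (0.103%) and 19 lower (0.13%) at day 33. Genes of alpha cells (Slc38a5, Irx2, Gria3), the receptors of vasopressin and oxytocin (Avpr1b, Oxtr), phosphatases of stress kinases (Dusp8, Dusp16, Dusp10), the clock gene Per1 and the insulin-degrading enzyme gene Ide fell. Among the genes that rose were Rasd2, Cpne4, Srrm4 and the channel genes Trpc4 and Kcnk13, and the cytokine gene Il1b. The changes were moderate: the called genes ran from -1.20 (Mgam) to 1.41 (Lmo1) on the log2 scale, against a median absolute change of 0.10 and a median standard error of 0.13 over all genes. Of the 34 genes 31 had day 33 values entirely on one side of the day 5 values, the 15 that rose and 16 of those that fell. Over all genes the groups did not overlap for 1.58% upwards and 1.62% downwards. The 34 genes were called on these same values, so their separation is a description and adds no support to the calls.

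**Figure D1:**
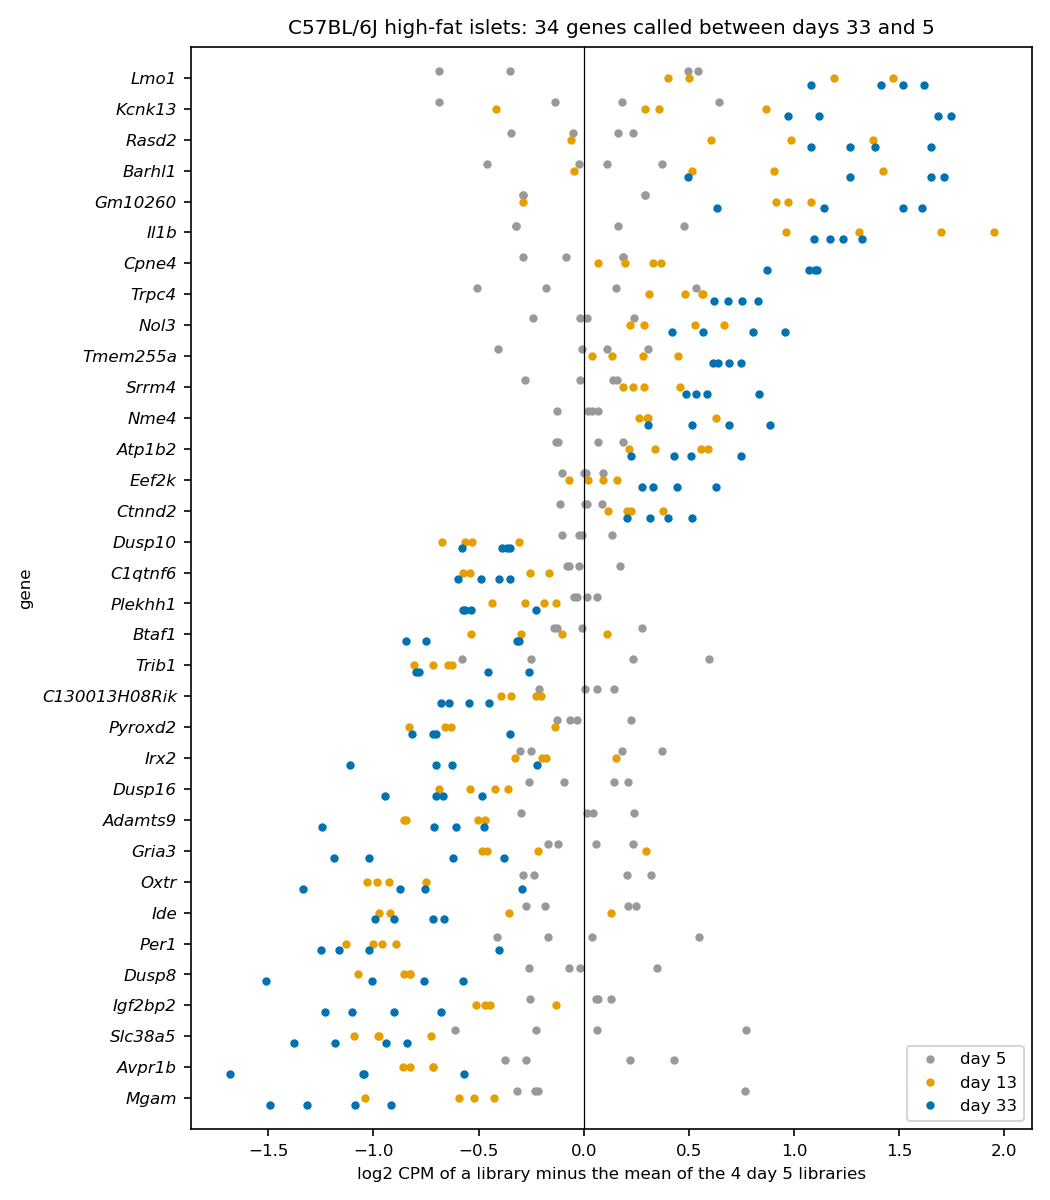
Each row is 1 of the 34 genes called between days 33 and 5, and each point is 1 library of C57BL/6J high-fat islets, as log2 CPM minus the mean of the 4 day 5 libraries (grey day 5, orange day 13, blue day 33). The genes run from Mgam at -1.20 to Lmo1 at 1.41, and the day 13 mean lies between the means of the other days for most of them.

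The number of calls depended on single libraries. It was 5 without day 33 replicate 4, 13 without day 5 replicate 4, 21 without day 33 replicate 3 and 56 without day 33 replicate 1. Igf2bp2, Dusp16, Ide and Cpne4 were called after each of the 8 removals of a day 5 or day 33 library, and 29 of the 34 calls were lost without day 33 replicate 4, where these genes and Dusp8 were left. Of the 34 genes, 28, 21, 22 and 13 were still called without day 5 replicates 1 to 4, and 25, 28, 20 and 5 without day 33 replicates 1 to 4. So each call named below, apart from those 4 genes, was lost in at least 1 removal, with a highest adjusted p between 0.0588 (Avpr1b) and 0.373 (Trib1). Directions did not turn in any of these removals. Fitted on the 12 libraries alone, limma called 2 genes, on the 23 C57BL/6J libraries 20, and with a weight for each library 1360. With the title number as a covariate, fitted on those 23 C57BL/6J libraries, no gene was called.

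Markers of alpha cells held 3 of the called genes, more than any other of the 41 gene and cell type lists examined. Of 12 measured alpha-cell markers 3 were called lower and none higher, where 0.13% of all genes were called lower. The list's median change was -0.41 against 0.0036 over all genes, and 10 of the 12 changes were below 0. Slc38a5 (ENSMUSG00000031170.14, GRCm38 chromosome X from 8271133 to 8280179, plus strand) encodes an amino acid transporter that carries glutamine into alpha cells. It stood at 3.70, 5.08, 4.08 and 4.37 log2 CPM at day 5, at 3.33, 3.33, 3.21 and 3.58 at day 13, and at 3.37, 3.12, 3.47 and 2.93 at day 33. All 4 day 33 libraries lay below all 4 day 5 libraries, and most of the difference was present by day 13. The change was -1.09 ± 0.23 (SE; limma, adjusted p = 0.0152).

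Irx2 (ENSMUSG00000001504.10, chromosome 13 from 72628820 to 72634198, plus strand), an Iroquois homeobox factor, measured 4.47, 5.09, 4.42 and 4.90 log2 CPM at day 5, 4.52, 4.39, 4.54 and 4.87 at day 13 and 4.09, 4.50, 4.02 and 3.61 at day 33. The day 13 mean lay nearer to day 5 than to day 33, and day 33 replicate 2 overlapped the day 5 range. The change from day 5 to day 33 was -0.67 ± 0.15 (SE; limma, adjusted p = 0.0303). Gria3 (ENSMUSG00000001986.16, chromosome X from 41400854 to 41678601, plus strand), a subunit of AMPA-type glutamate receptors, was at 5.54, 5.71, 5.35 and 5.30 log2 CPM at day 5, at 5.02, 4.99, 5.26 and 5.77 at day 13 and at 5.10, 4.85, 4.46 and 4.29 at day 33. The day 5 and day 33 ranges did not touch, and the change was -0.80 ± 0.17 (SE; limma, adjusted p = 0.0188).

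The hormone itself was less clear. Gcg, which encodes glucagon, was at 14.79, 15.72, 15.11 and 15.20 log2 CPM at day 5 and at 14.84, 14.55, 14.70 and 14.05 at day 33, a change of -0.67 ± 0.18 with overlapping groups (SE; limma, adjusted p = 0.126). Ttr, a thyroid hormone carrier abundant in alpha cells, had a change of -0.49 ± 0.14 (adjusted p = 0.21), and Tm4sf4 one of 0.04 ± 0.11 (adjusted p = 0.949). Without adjustment 6 of the 12 markers were lower at p under 0.05, where 4.51% of all genes were. From day 5 to day 33 on chow the list's median change was -0.33. There 6 of the 12 markers were lower at that level (788 of all 14604 genes), and none was called. The difference of the changes, HFD minus chow, had a median of -0.16 over the list, and no marker was called. In bulk islets, fewer alpha cells and less of these RNAs per alpha cell cannot be told apart.

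**Figure D2:**
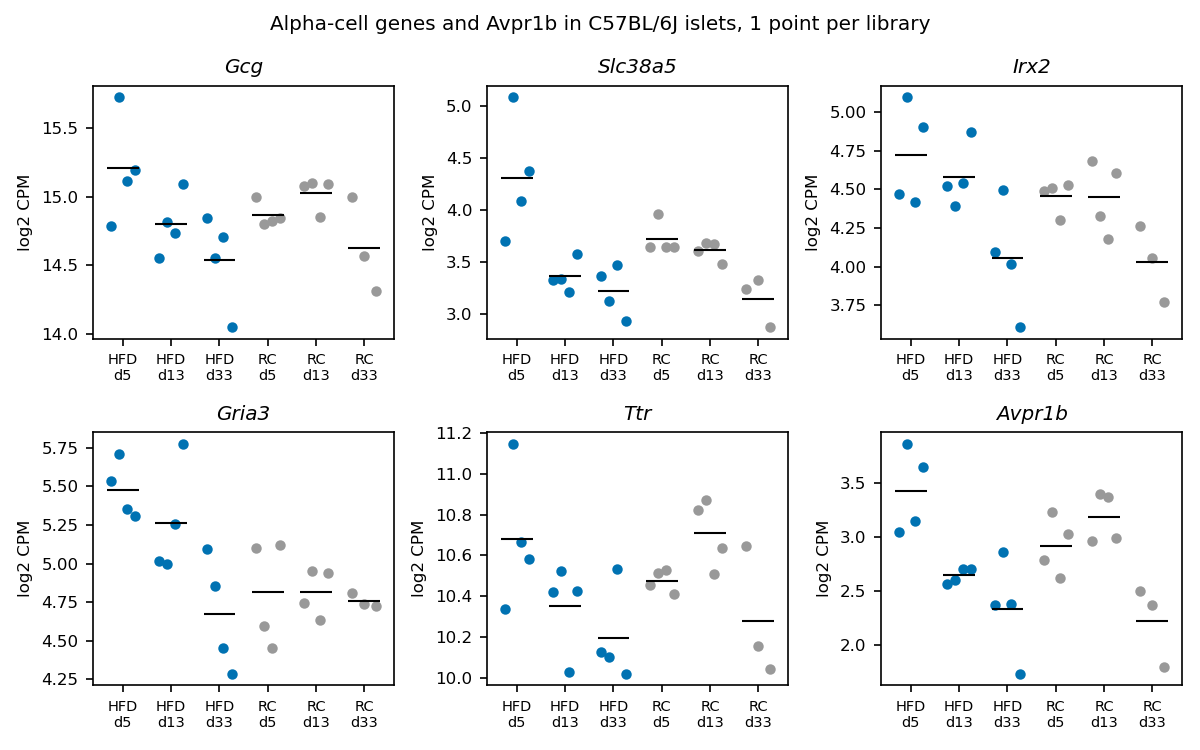
Log2 CPM (vertical axis) of 5 alpha-cell markers and Avpr1b in each C57BL/6J library by diet and day (blue HFD, grey RC), with a line at the group mean. Slc38a5 and Avpr1b have their highest group mean at HFD day 5, and Gria3 and Ttr their lowest at HFD day 33.

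The acinar markers given above were also lower at day 33, without passing the test. With the mean acinar marker level as a covariate, Slc38a5 changed by -0.98 (adjusted p = 0.0531) and Irx2 by -0.62 (adjusted p = 0.0741), neither past the threshold, while Gria3 stayed past it. The calls of all 3 genes were lost without day 33 replicate 4, and the highest adjusted p over the 8 removals was 0.162 for Slc38a5, 0.318 for Irx2 and 0.187 for Gria3.

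RefSeq (build GRCm38.p6) holds promoter windows for Slc38a5 and Irx2 that run from 250 bases before to 50 bases after a start that it lists; for Slc38a5 this start lies inside the gene as given above from GENCODE M21. They are shown because both markers were called lower at day 33, though their day 13 levels followed different courses. The E-box CACGTG, the site that the clock activators and other basic helix-loop-helix factors can bind, is in capitals. Both strands were searched for it, for the cAMP response element TGACGTCA, for the D-box letters TTATGTAA and TTACGTAA and for the ER stress response element. None of these words contains another.
Slc38a5, chrX:8271131-8271430, plus strand: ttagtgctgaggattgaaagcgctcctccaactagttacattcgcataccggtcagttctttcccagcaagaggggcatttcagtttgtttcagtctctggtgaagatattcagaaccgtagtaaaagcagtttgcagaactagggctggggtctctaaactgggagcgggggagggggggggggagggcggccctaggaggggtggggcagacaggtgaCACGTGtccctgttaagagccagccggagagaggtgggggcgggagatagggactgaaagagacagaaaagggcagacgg
Irx2, chr13:72628570-72628869, plus strand: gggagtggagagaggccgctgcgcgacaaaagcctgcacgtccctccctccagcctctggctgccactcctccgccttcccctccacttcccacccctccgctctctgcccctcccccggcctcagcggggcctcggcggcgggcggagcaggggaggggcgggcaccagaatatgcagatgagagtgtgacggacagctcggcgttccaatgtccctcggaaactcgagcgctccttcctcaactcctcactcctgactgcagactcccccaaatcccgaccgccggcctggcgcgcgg
Of these words the Slc38a5 window holds the E-box alone, and the Irx2 window holds none. The E-box occurs in 7.15% of all 32851 windows of this length, the cAMP response element in 1.79%, TTATGTAA in 0.938%, and TTACGTAA and the ER stress response element in 0.119% each.

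Receptor genes for the pituitary hormones vasopressin and oxytocin were lower at day 33. Avpr1b (ENSMUSG00000026432.7, chromosome 1 from 131599239 to 131612000), the vasopressin V1b receptor through which vasopressin can stimulate glucagon release, was at 3.05, 3.85, 3.15 and 3.65 log2 CPM at day 5, at 2.57, 2.60, 2.71 and 2.71 at day 13 and at 2.37, 2.86, 2.38 and 1.74 at day 33. No library of the later days reached the day 5 range. The change by day 33 was -1.09 ± 0.19 (SE; limma, adjusted p = 0.00203), and its adjusted p was 0.0588 without day 33 replicate 4. Oxtr, the oxytocin receptor gene, was at 5.50, 6.06, 5.45 and 5.94 log2 CPM at day 5 and at 4.98, 5.44, 4.86 and 4.40 at day 33. Its groups nearly touched without overlapping, and it changed by -0.82 ± 0.18 (SE; adjusted p = 0.0279, and 0.0724 with the acinar covariate). Chow libraries had Oxtr at 4.97 to 5.23 log2 CPM at day 5 and at 4.67 to 5.47 at day 33.

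Several further genes fell. Igf2bp2 (ENSMUSG00000033581.16, chromosome 16 from 22059009 to 22163299), an RNA-binding protein of the IGF2 mRNA-binding family, was at 3.10, 3.43, 3.42 and 3.49 log2 CPM at day 5, 3.23, 2.89, 2.85 and 2.91 at day 13 and 2.26, 2.68, 2.13 and 2.46 at day 33. The day 33 libraries lay below all libraries of both earlier days, and the change was -0.98 ± 0.18 (SE; limma, adjusted p = 0.0038). Mgam, a starch-digesting maltase, had the largest fall among the called genes at -1.20 ± 0.27 (adjusted p = 0.0282), with day 5 replicate 4 at 3.68 log2 CPM and the other day 5 libraries between 2.59 and 2.69. Its call was lost in 4 of the 8 removals. The secreted protease gene Adamts9 changed by -0.76 ± 0.17 (adjusted p = 0.0303), the mitochondrial oxidoreductase gene Pyroxd2 by -0.65 ± 0.15 (adjusted p = 0.0284), Plekhh1 by -0.48 ± 0.09 (adjusted p = 0.00636) and C1qtnf6, a secreted relative of complement C1q, by -0.46 ± 0.11 (adjusted p = 0.0303).

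Some dual-specificity phosphatases of the Dusp family remove the activating phosphates of MAP kinases. Among these, Dusp8, Dusp10 and Dusp16 act mainly on the stress-activated kinases JNK and p38. These 3 genes fell; the family was picked out after their values were seen. Dusp16 (ENSMUSG00000030203.17, chromosome 6 from 134715468 to 134792625) was at 4.56, 4.73, 4.97 and 5.04 log2 CPM at day 5, at 4.13, 4.40, 4.46 and 4.28 at day 13 and at 4.12, 4.34, 4.15 and 3.88 at day 33, a change of -0.70 ± 0.12 (SE; limma, adjusted p = 0.0013). Dusp8 (ENSMUSG00000037887.11, chromosome 7 from 142079490 to 142095843) was at 4.53, 4.76, 4.71 and 5.13 at day 5 and at 3.27, 4.21, 3.78 and 4.02 at day 33, a change of -0.96 ± 0.19 (adjusted p = 0.00636). For Dusp10 (ENSMUSG00000039384.8, chromosome 1 from 184013302 to 184075636) the values were 4.46, 4.70, 4.56 and 4.54 at day 5 and 3.99, 4.18, 4.20 and 4.22 at day 33, a change of -0.42 ± 0.09 (adjusted p = 0.0176).

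In all 3 genes every day 13 and day 33 library lay below every day 5 library. Their changes by day 13 were -0.50 ± 0.12 for Dusp16, -0.89 ± 0.19 for Dusp8 and -0.52 ± 0.09 for Dusp10 (SE; adjusted p = 0.0447, 0.0247 and 0.00346). The family as a whole did not share a direction. Of 19 measured numbered Dusp genes, taken by name and not by substrate, 11 had changes below 0 by day 33. Their median was -0.05, the range ran from -0.96 to 0.58, and none of the others was called. On chow, the changes of the 3 genes from day 5 to day 33 were -0.01 ± 0.13, -0.21 ± 0.21 and -0.04 ± 0.10 (SE; adjusted p = 0.977, 0.706 and 0.889). Over all chow days the levels were 4.06 to 4.57 for Dusp16, 3.65 to 4.60 for Dusp8 and 3.99 to 4.32 for Dusp10. On HFD the day 5 libraries lay above this range, and the day 33 libraries within it, for Dusp10. The same held for Dusp16 and Dusp8, apart from the lowest library of each day. Day 5 on HFD was thus the high group, and at day 5 title number and diet cannot be told apart.

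Among 20 measured genes of the circadian clock, the feedback loop of transcription factors that times daily rhythms, Per1 alone was called. Per1 (ENSMUSG00000020893.17, chromosome 11 from 69095217 to 69109960) is a repressor in that loop that also responds to acute signals. It was at 6.48, 6.24, 6.69 and 7.20 log2 CPM at day 5, at 5.65, 5.69, 5.52 and 5.76 at day 13 and at 5.41, 6.25, 5.63 and 5.49 at day 33. The change was -0.96 ± 0.21 by day 33 (SE; limma, adjusted p = 0.0249) and -0.996 ± 0.21 by day 13 (adjusted p = 0.0247), and day 33 replicate 2 overlapped the day 5 range. Its day 33 call was lost in 5 of the 8 removals, those of day 5 replicates 3 and 4 and of day 33 replicates 1, 3 and 4.

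Day 5 on HFD was the high point of Per1. On chow it was at 5.05, 5.15, 4.92 and 4.81 log2 CPM at day 5 and at 5.56, 5.51 and 5.71 at day 33, so the change from day 5 to day 33 differed between the diets by -1.57 ± 0.32 (SE; limma, adjusted p = 0.0304). That difference passed the threshold for 3 genes in all (0.0205%), with Trib1 and Pole, a DNA polymerase subunit gene, as the others. Trib1, a pseudokinase that steers proteins to degradation, was at 5.88, 5.55, 6.72 and 6.36 log2 CPM at day 5 and at 5.34, 5.33, 5.87 and 5.67 at day 33 on HFD, a change of -0.57 ± 0.14 (adjusted p = 0.0361), and was at 4.93 to 5.14 at day 5 and at 5.33 to 5.56 at day 33 on chow, a change of 0.47 ± 0.15 (adjusted p = 0.151). Its difference between the diets was -1.05 ± 0.20 (adjusted p = 0.0246). Pole had a difference of -2.44 ± 0.47 (adjusted p = 0.0246), from changes of -1.06 ± 0.32 on HFD and 1.39 ± 0.35 on chow. The fall of Trib1 on HFD was -0.375 without day 5 replicate 3 (adjusted p = 0.373), and its call was lost in 5 of the 8 removals. The title numbers of day 33 are the same on both diets, while at day 5 those on chow are all higher than those on HFD, so in this comparison title number and diet at day 5 cannot be told apart; with the title number as a covariate no gene passed. No gene passed this test without day 5 replicate 3 or 4 on HFD, without day 33 replicate 1 on chow or without day 5 replicate 1 or 3 on chow, 1 passed without day 33 replicate 2 on HFD or day 33 replicate 4 on chow, and 6 passed without day 5 replicate 1 on HFD.

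Other clock genes differed between libraries of the same day, and the differences followed the title numbers. Arntl, which encodes the clock activator BMAL1, was at 3.60 and 4.08 log2 CPM in day 5 replicates 1 and 2 and at 1.81 and 2.40 in replicates 3 and 4. At day 13 it was at 4.25 and 4.31 in replicates 1 and 2 and at 3.41 and 3.18 in replicates 3 and 4, and at day 33 at 3.47 and 3.19 against 3.80 and 4.21. Within each day the pair with the lower title numbers thus stood on one side of the pair with the higher numbers, though at day 33 the order was turned. Nfil3, a repressor on the output side of the clock, split the same way, with 3.35 and 4.21 against 1.91 and 2.74 at day 5, 4.71 and 4.40 against 3.27 and 3.22 at day 13, and 3.40 and 3.20 against 4.48 and 4.69 at day 33. The split was noticed in the data, and the hour of collection is not given in the sources used here.

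With the Arntl level of each library as a covariate, an alternative chosen after seeing the data, 28 genes were called between days 33 and 5 and 24 of them were among the 34. Per1 changed by -0.84 (adjusted p = 0.0803) and Trib1 by -0.48 (adjusted p = 0.128) in that fit. No gene passed the test of the difference between diets, where Per1 was at -1.34 (adjusted p = 0.351).

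**Figure D3:**
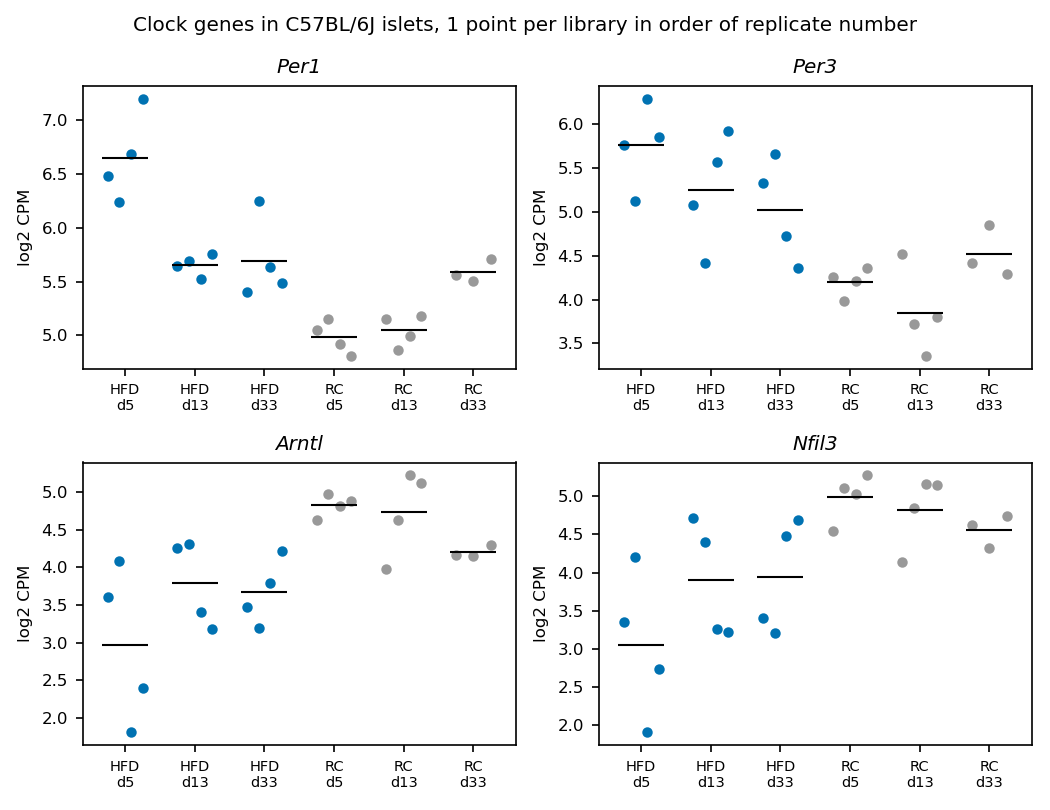
Log2 CPM (vertical axis) of Per1, Per3, Arntl and Nfil3 in each C57BL/6J library by diet and day (blue HFD, grey RC; points in order of replicate number, line at the group mean). Per1 is highest at HFD day 5, and within each HFD day Arntl and Nfil3 fall into a pair of lower and a pair of higher libraries.

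RefSeq lists promoter windows for 2 starts of Per1, a gene that was added to the sequences after its values were seen. The upstream window, printed with its E-box in capitals, is the one with a match, and the other window holds none of the words searched.
Per1, chr11:69098699-69098998, plus strand: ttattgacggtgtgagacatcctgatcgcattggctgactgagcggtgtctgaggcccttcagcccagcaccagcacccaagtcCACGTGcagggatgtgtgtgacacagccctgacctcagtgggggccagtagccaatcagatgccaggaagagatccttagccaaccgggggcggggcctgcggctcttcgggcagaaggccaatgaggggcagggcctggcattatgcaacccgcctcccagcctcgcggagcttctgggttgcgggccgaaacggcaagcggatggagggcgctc

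Ide, the gene of the insulin-degrading enzyme, had the lowest adjusted p with Dusp16. Ide (ENSMUSG00000056999.14, chromosome 19 from 37268743 to 37337852, minus strand) was at 5.84, 6.23, 6.27 and 5.75 log2 CPM at day 5 and at 5.36, 5.03, 5.31 and 5.12 at day 33, a change of -0.82 ± 0.14 (SE; limma, adjusted p = 0.0013). At day 13 it was at 5.05 and 5.10 in replicates 1 and 2 and at 6.15 and 5.67 in replicates 3 and 4, so the libraries of that day lay on both sides. Over the 23 C57BL/6J libraries no Ide value fell between 5.36 and 5.67: above this gap were 4 of 4 libraries at HFD day 5, 2 of 4 at HFD day 13, 0 of 4 at HFD day 33, 0 of 4 at RC day 5, 4 of 4 at RC day 13 and 0 of 3 at RC day 33. On chow Ide was thus high at day 13 alone, at 5.95 to 6.35 log2 CPM.

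The neighbouring genes Fgfbp3 (ENSMUSG00000047632.10, chromosome 19 from 36917550 to 36919615), which encodes a carrier of fibroblast growth factors, and Btaf1 (ENSMUSG00000040565.7, chromosome 19 from 36926079 to 37012752), an ATPase that removes TATA-binding protein from DNA, lie at lower coordinates of the same chromosome. Fgfbp3 was at 2.65, 2.62, 3.22 and 2.43 log2 CPM at HFD day 5, at 1.80, 2.11, 3.24 and 2.83 at day 13 and at 2.22, 1.44, 1.73 and 1.87 at day 33, and it was at 2.74 to 3.39 at RC day 13 against 1.59 to 2.28 at the other chow days. Each library above the Ide gap had more Fgfbp3 than each library below it. Fgfbp3 was not called between days 33 and 5, at -0.92 ± 0.24 (SE; limma, adjusted p = 0.113). Btaf1 was at 6.25, 6.27, 6.67 and 6.39 at day 5 and at 6.08, 6.09, 5.65 and 5.55 at day 33 and fell by 0.56 ± 0.12 (adjusted p = 0.0249), a call that was lost in 4 of the 8 removals.

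Between them, Cpeb3 (0.24 ± 0.16, adjusted p = 0.681) was not called, and neither was Tnks2 next to Fgfbp3 (-0.09 ± 0.09, adjusted p = 0.8). As background, a stretch of chromosome 19 that includes Ide and Fgfbp3 is known to vary in copy number among individual C57BL/6J mice. DNA was not measured here, and the part of such a difference in these values was not tested.

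**Figure D4:**
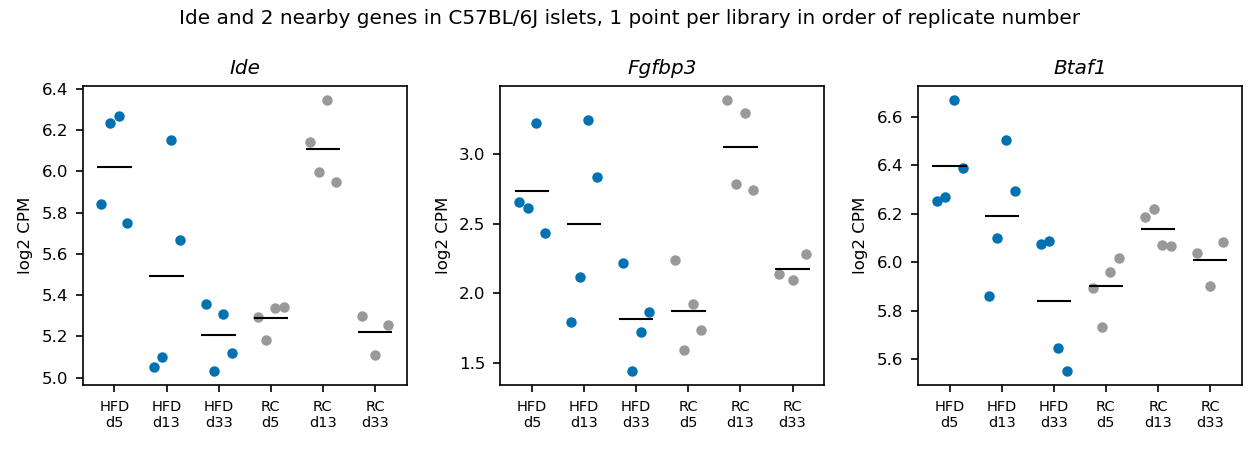
Log2 CPM (vertical axis) of Ide, Fgfbp3 and Btaf1 in each C57BL/6J library by diet and day (blue HFD, grey RC; points in order of replicate number, line at the group mean). Ide and Fgfbp3 are high at HFD day 5, in replicates 3 and 4 of HFD day 13 and at RC day 13, and low in the other libraries.

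The genes that rose were mostly of low to middle level. Cpne4 (ENSMUSG00000032564.16, chromosome 9 from 104547286 to 105034544), a calcium-dependent lipid-binding copine, was at 1.79, 1.52, 1.79 and 1.31 log2 CPM at day 5, at 1.97, 1.94, 1.80 and 1.67 at day 13 and at 2.71, 2.67, 2.71 and 2.48 at day 33. All day 33 libraries lay above all earlier ones, with a change of 1.04 ± 0.19 (SE; limma, adjusted p = 0.00355). Rasd2 (ENSMUSG00000034472.13, chromosome 8 from 75213944 to 75224113), a small GTPase best known from the striatum, was at 1.24, 0.94, 1.45 and 1.52 at day 5, at 2.27, 2.66, 1.89 and 1.23 at day 13 and at 2.55, 2.37, 2.67 and 2.94 at day 33. It rose by 1.35 ± 0.26 (adjusted p = 0.0052), and on chow it rose by 1.29 ± 0.28 (adjusted p = 0.0308).

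Further genes rose in the same comparison. Srrm4, a splicing factor of neuronal microexons, rose by 0.61 ± 0.13 (SE; limma, adjusted p = 0.0117), the cation channel gene Trpc4 by 0.72 ± 0.15 (adjusted p = 0.012), the potassium channel gene Kcnk13 by 1.38 ± 0.31 (adjusted p = 0.0276) and Atp1b2, a beta subunit of the sodium pump, by 0.48 ± 0.11 (adjusted p = 0.0303). Kcnk13 was at -0.285 to 1.045 log2 CPM at day 5 and at 1.37 to 2.15 at day 33. Chow libraries had it at 1.25 to 1.67 at day 5 and at 1.63 to 1.85 at day 33. Ctnnd2, which encodes delta-catenin of neuronal junctions, rose by 0.36 ± 0.07 (adjusted p = 0.00586). The homeobox gene Barhl1 rose by 1.28 ± 0.27 (adjusted p = 0.0117) and the LIM-only cofactor gene Lmo1 by 1.41 ± 0.30 (adjusted p = 0.0143), both from levels near 1 CPM. Nol3, an inhibitor of apoptosis, rose by 0.69 ± 0.13 (adjusted p = 0.00355) and Eef2k, the kinase that slows translation elongation, by 0.42 ± 0.09 (adjusted p = 0.0161). By day 13 the changes of Eef2k and Cpne4 were only 0.05 ± 0.09 and 0.24 ± 0.19. The membrane protein gene Tmem255a rose by 0.67 ± 0.14 (adjusted p = 0.00912) and Nme4, a mitochondrial nucleoside diphosphate kinase gene, by 0.60 ± 0.14 (adjusted p = 0.0499). The list of 34 also held the antisense gene C130013H08Rik, which fell by 0.58 ± 0.14 (adjusted p = 0.0361), and the predicted gene Gm10260 (adjusted p = 0.00586). Gm10260 was at -2.95, -3.54, -3.54 and -2.95 log2 CPM at day 5, at or near the floor where no read was counted, and at -1.73, -2.61, -2.10 and -1.64 at day 33, so its call rests on a handful of reads and no fold is given.

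Il1b (ENSMUSG00000027398.13, chromosome 2 from 129364570 to 129371139), the gene of the inflammatory cytokine interleukin-1 beta, was at -1.22, -0.42, -0.74 and -1.22 log2 CPM at day 5, at 0.41, 0.06, 1.05 and 0.80 at day 13 and at 0.42, 0.27, 0.33 and 0.20 at day 33. The day 5 libraries were the low ones, and chow libraries of day 5 stood at 0.87 to 1.29. It rose by 1.21 ± 0.28 by day 33 (SE; limma, adjusted p = 0.036) and by 1.48 ± 0.28 by day 13 (adjusted p = 0.00906). The day 33 call was lost in 7 of the 8 removals. Of 17 measured chemokine and NF-kB target genes Il1b alone was called, and the median change was 0.13. Macrophage markers lay in like ranges on both days: the mean of 14 markers was 2.49 to 2.64 log2 CPM at day 5 and 2.51 to 2.69 at day 33, and the macrophage lysozyme gene Lyz2 differed by -0.04 ± 0.48 (adjusted p = 0.991).

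The hormone genes and the list of beta-cell identity gave no call. Ins1 (0.15 ± 0.18, adjusted p = 0.853), Ins2 (0.19 ± 0.21, adjusted p = 0.837) and Iapp, which encodes the co-secreted amylin (0.14 ± 0.10, adjusted p = 0.721), had overlapping libraries. So did the somatostatin gene Sst (0.05 ± 0.15, adjusted p = 0.949) and the pancreatic polypeptide gene Ppy (0.29 ± 0.31, adjusted p = 0.829). Among 28 genes of beta-cell identity none was called and the median change was 0.07, with Pdx1 at 0.13 ± 0.09 and Mafa at 0.01 ± 0.26 (limma, adjusted p = 0.698 and 0.998). None of 25 genes of insulin granule exocytosis was called (median 0.02), and none of 15 receptors of nutrients and incretins (median 0.02). Of 15 genes of prohormone processing, granins and granule zinc, Ide was the one called, and the median was 0.07.

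Of the 41 gene and cell type lists 37 had no called member. DNA replication and mitosis had 0 calls among 43 genes and a median of -0.002; Mki67, the marker of dividing cells, was at 3.40, 4.08, 3.93 and 4.08 log2 CPM at day 5 and at 5.00, 3.06, 4.35 and 3.25 at day 33. At day 13 values of this list were lower: Mki67 was at 2.52 and 1.43 in replicates 3 and 4, the list's median change from day 5 was -0.61, and 21 of the 43 genes were lower at an unadjusted p under 0.05 (3.66% of all genes), none called. The mean level of the list was 2.05 to 2.68 log2 CPM at day 5 and 1.86 to 2.76 at day 33, and at day 13 it was 1.99 and 2.12 in replicates 1 and 2 and 1.52 and 1.05 in replicates 3 and 4. From day 13 to day 33 the median was 0.53, with 19 higher at that level (4.44% of all genes) and Cdc20 called. On chow the median from day 5 to day 33 was 0.67, with 23 higher at that level (7.31% of all genes) and none called.

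ER chaperones and ER-associated degradation had 0 of 36 called and a median of 0.10, with 4 higher and 0 lower at an unadjusted p under 0.05 (4.22% and 4.51% of all genes). One of these 4 was Wfs1, the ER membrane gene of Wolfram syndrome, at 0.43 ± 0.14 (limma, adjusted p = 0.252). Among 24 antioxidant genes 6 were higher and 1 lower at that level, none called.

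The lists of non-endocrine cells held larger but noisier differences. None of the 30 acinar markers was called, with a median of -1.65 and 29 changes below 0. At an unadjusted p under 0.05, 12 of them were lower (4.51% of all genes). The acinar median over the same days on chow was -1.31, and the difference of the changes, HFD minus chow, had a median of -0.32. Ctrb1, a chymotrypsinogen gene, was at 7.26, 9.81, 8.25 and 9.46 log2 CPM at day 5 and at 6.78, 5.37, 7.27 and 7.72 at day 33, a change of -1.91 ± 0.83 (SE; limma, adjusted p = 0.48). The 4 measured genes of the Reg family, secreted lectins that acinar cells make in quantity, had a median of -2.32. All 4 were lower at an unadjusted p under 0.05 (4.51% of all genes), and none was called. Their median on chow was -1.07. Endothelial markers were the opposite case, with small differences of one sign: all 13 measured changes were above 0, from 0.04 to 0.34. At an unadjusted p under 0.05, 7 were higher (4.22% of all genes), and none was called. Their median was 0.21 on HFD and 0.04 on chow. Kdr and Flt1, the receptors of vascular endothelial growth factor, differed by 0.21 ± 0.09 and 0.24 ± 0.08 (adjusted p = 0.453 and 0.276).

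Day 13 gave the middle point of the 34 genes. For the 15 genes that rose, the day 13 mean lay nearer day 5 in 5, nearer day 33 in 9 and past day 33 in 1, and for the 19 that fell it was nearer day 5 in 4, nearer day 33 in 11 and past day 33 in 4 (Per1, Oxtr, Trib1 and Dusp10). These counts use the same day 5 libraries as the calls and are a description.

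Between day 5 and day 13, limma called 25 genes (0.171%), 15 higher and 10 lower. For 11 of the 25 the difference from day 5 at day 33 was less than 0.5 times that at day 13 or of the other sign. Tnfaip2, a target of the inflammatory factor NF-kB, had the lowest adjusted p: it was at 3.07, 3.09, 2.51 and 2.37 log2 CPM at day 5, at 3.72, 3.42, 3.87 and 3.71 at day 13 and at 3.20, 3.02, 3.49 and 3.29 at day 33, with a rise of 0.92 ± 0.14 by day 13 (SE; adjusted p = 0.000198). Also higher at day 13 were Fdft1 (0.50 ± 0.11, adjusted p = 0.0247), which makes squalene in cholesterol synthesis, and the desaturase gene Scd2 (0.55 ± 0.13, adjusted p = 0.0447). The list of cholesterol synthesis and uptake had 14 of 24 genes higher by day 13 at an unadjusted p under 0.05 (661 of all 14604 genes), 2 of them called. After day 13, 18 of the 24 were lower by day 33 at that level (570 of all 14604), none called. Its mean at day 13 was 5.168 and 5.107 log2 CPM in replicates 1 and 2 and 5.595 and 5.647 in replicates 3 and 4. Fdft1 was at 6.51 and 6.61 log2 CPM in day 13 replicates 3 and 4 and at 5.88 and 5.81 in replicates 1 and 2, against 5.53 to 5.89 at day 5. The high Fdft1 values thus lay in the libraries that stood apart in the second principal component and in Ide. Without those 2 libraries the change by day 13 was 0.15 for Fdft1, 0.29 for Scd2 and 0.81 for Tnfaip2, none of them called (adjusted p = 1, 0.942 and 0.0767).

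From day 13 to day 33 limma called 6 genes (0.0411%). Trib3 and Chac1, targets of the transcription factor ATF4 in the integrated stress response, fell most among these 6. Trib3 was at 1.74, 1.14, 1.41 and 2.71 log2 CPM at day 5, at 3.24, 2.27, 3.72 and 3.88 at day 13 and at 1.02, 1.04, 1.16 and 1.06 at day 33, a fall of 2.21 ± 0.37 after day 13 (SE; adjusted p = 0.00295). Chac1, a glutathione-degrading enzyme, was at 5.23, 4.52, 4.86 and 4.88 at day 13 and at 2.62, 3.02, 2.85 and 2.90 at day 33, a change of -2.03 ± 0.42 (adjusted p = 0.0322). Without day 13 replicates 3 and 4 the changes were -1.68 for Trib3 and -2.03 for Chac1 (adjusted p = 0.239 for both). Ddit3, another gene of that response, changed by -0.32 ± 0.20 (adjusted p = 0.71). Scd2 changed by -0.69 ± 0.13 (adjusted p = 0.00857), and Otub2, a deubiquitinase gene, fell by 0.55 ± 0.11 (adjusted p = 0.0161). Cdc20, an activator of mitotic exit, rose by 1.88 ± 0.36 (adjusted p = 0.0161), and Kcnip1, a potassium channel partner, by 0.54 ± 0.11 (adjusted p = 0.0326).

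These day 13 counts fell when 2 libraries were left out. Without day 13 replicates 3 and 4 together, a fit added after seeing the data, 1 gene was called against day 5 and 0 against day 33. That fit leaves 2 libraries at day 13, and a smaller group by itself gives fewer calls. Some changes by day 13 were of like size in it, such as -0.98 for Per1 and -0.95 for Dusp8. Others shrank, such as those of Fdft1 and Scd2 given above. Leaving out 1 library at a time, the count against day 5 ran from 3 (without day 13 replicate 3 or 4) to 70 (without day 13 replicate 2), with 5 without day 5 replicate 3 or 4, 42 without day 5 replicate 2 and 49 without day 13 replicate 1. The count against day 33 ran from 0 (without day 13 replicate 3) to 60 (without day 13 replicate 2), with 2 without day 13 replicate 4 or day 33 replicate 3, 14 without day 33 replicate 1 and 23 without day 13 replicate 1.

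Mice on chow, which share no library with the HFD groups, give the change over the same days on the other diet, with the difference in title numbers at day 5 given above. Chow islets had 18 genes called between days 5 and 33 (0.123%), 17 higher and 1 lower, and the count was 0 without day 33 replicate 1, 2 or 4 or day 5 replicate 2, 1 without day 5 replicate 1 or 4 and 38 without day 5 replicate 3. Of the 15 genes that rose on HFD 12 had a change above 0 on chow, with a median of 0.28 against 0.72 on HFD, and Rasd2 and Trpc4 were called on both diets. Trpc4 rose by 0.75 ± 0.16 on chow (SE; adjusted p = 0.0308), and Cpne4 changed by 0.81 ± 0.20 (adjusted p = 0.0738). Of the 19 genes that fell on HFD 14 had a change below 0 on chow, with a median of -0.06 against -0.76, and none was called. Avpr1b, Slc38a5 and Igf2bp2 were the lowest of these on chow, at -0.69 ± 0.20, -0.58 ± 0.25 and -0.48 ± 0.20 (adjusted p = 0.127, 0.314 and 0.289). The medians on HFD are those of genes chosen for their change on HFD.

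**Figure D5:**
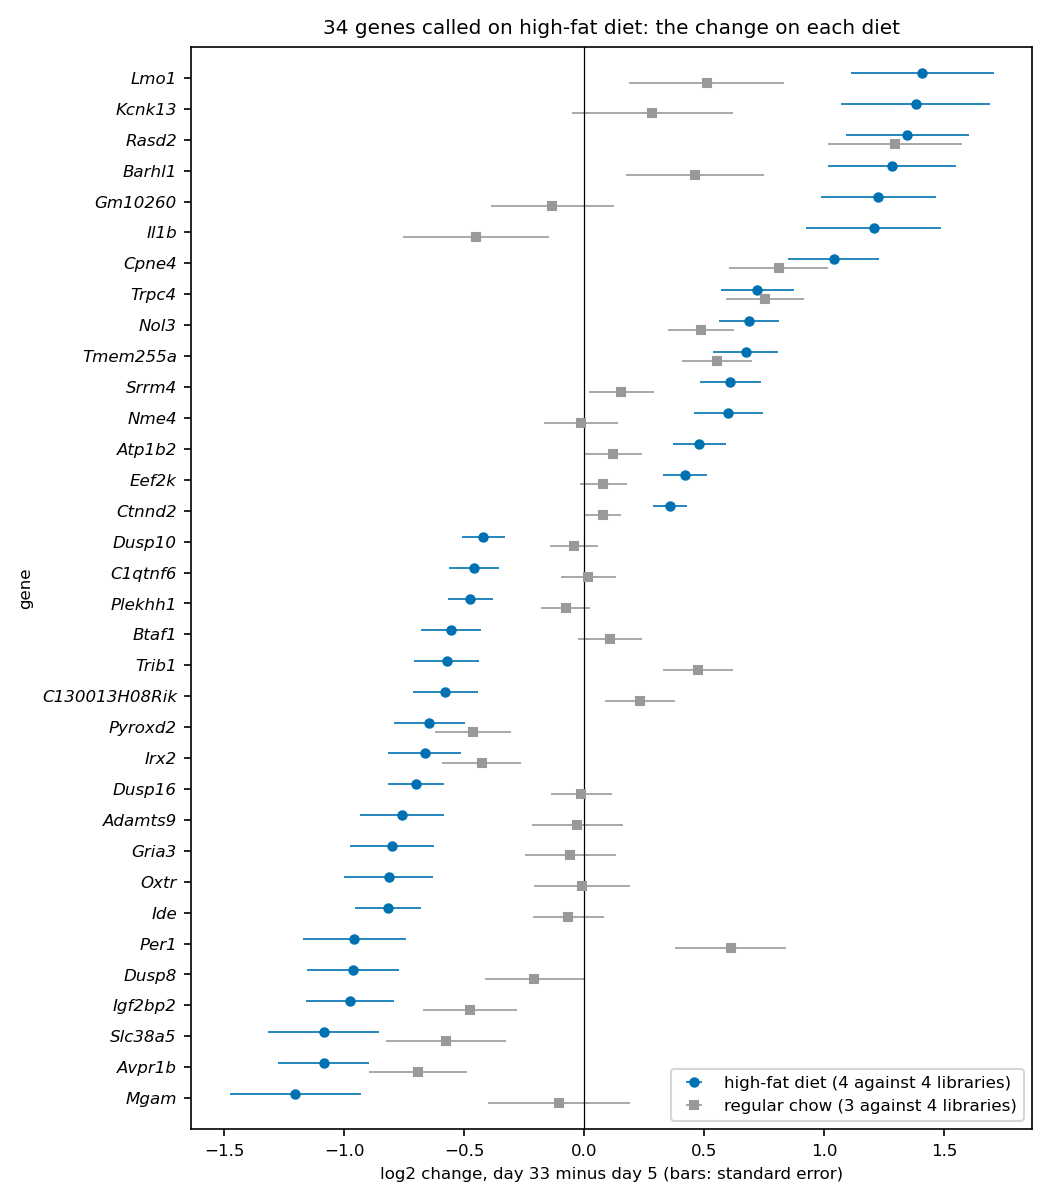
Log2 change from day 5 to day 33 (horizontal axis, bars are standard errors) on high-fat diet (blue circles) and on chow (grey squares) for the 34 genes called on high-fat diet. Rasd2 lies at 1.35 and 1.29 and Trpc4 at 0.72 and 0.75 on the 2 diets, while Per1 and Trib1 lie below 0 on high-fat diet and above 0 on chow.

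Set against the same days on HFD in the other strains, the C57BL/6J change differed for 4 genes from that of BALB/cJ (0.0274%) and for 1726 genes from that of DBA/2J (11.8%). Against BALB/cJ the change was lower in C57BL/6J for Slc38a5 (-1.58 ± 0.33, adjusted p = 0.0434) and Avpr1b (-1.29 ± 0.27, adjusted p = 0.0434) and higher for the proprotein convertase gene Pcsk6 (0.93 ± 0.17, adjusted p = 0.0162) and for Dcdc2a (2.12 ± 0.42, adjusted p = 0.0386). That count was 0 without day 5 replicate 4 or day 33 replicate 4 of C57BL/6J or without day 33 replicate 4 of BALB/cJ, 1 without day 5 or day 33 replicate 3 of C57BL/6J, 2 without day 5 replicate 3 of BALB/cJ, 11 without day 5 replicate 4 of BALB/cJ and 19 without day 33 replicate 1 of C57BL/6J. Against DBA/2J the change of C57BL/6J was lower for Ide (-1.14 ± 0.20, adjusted p = 0.00136), Btaf1 (-1.01 ± 0.18, adjusted p = 0.00152) and Plekhh1 (-0.80 ± 0.13, adjusted p = 0.000999). This count moved with single libraries of both strains: it was 439 without C57BL/6J day 5 replicate 3, 3850, 583 and 475 without its day 33 replicates 1, 3 and 4, 119 and 982 without DBA/2J day 5 replicates 3 and 4, and 938 and 843 without DBA/2J day 33 replicates 3 and 4. With the Arntl covariate it was 727. At day 5 on HFD the title numbers of DBA/2J and BALB/cJ are all higher than those of C57BL/6J, while at day 33 they overlap. In both comparisons title number and strain at day 5 thus cannot be told apart, and no title number covariate was fitted for them.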

How the data were processed

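Bulk RNA was sequenced from islets of single mice, and libraries were grouped by the strain, diet and day in the labels. The deposited table holds log2 CPM values for 14604 genes in 69 libraries; for 3 of the 72 samples of the series no values were used here. Per the submitters' processing notes, GRCm38, STAR 2.5.3a, HTSeq 0.9.1 and edgeR were used; the counting parameters are not given in the sources used here. The lowest value, -3.54 log2 CPM (0.0862 CPM), served to recover whole reads, and 100% of values came out whole within 0.05 reads. Names and coordinates came from GENCODE M21, which matched 14589 IDs.

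In R 4.3.3, limma 3.58.1 fitted 1 mean per group over all 69 libraries and 18 groups with a mean-variance trend, which shares 1 estimate of the spread (51 residual degrees of freedom). Tests were two-sided, with Benjamini-Hochberg adjustment within each comparison and a threshold of 0.05. Errors written ± are standard errors of that fit. The fit was also run on simulated counts with independent replicates and the same spread setting for every gene. That run checks the code and cannot decide how well the p-values hold for these libraries, whose spread may differ. Alternatives changed the libraries, filter, pseudocount, scaling, weights or covariates, or left out 1 library at a time.

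The members and gene lists were chosen with earlier results of these data known. Genes were named by a rule on called, protein-coding genes whose groups did not overlap (the 12 highest and 12 lowest changes by day 33, the 4 of each at day 13), outside the lowest 25% by level, the 6 lowest p of each difference of changes, up to 4 members of each list and a fixed set. Of the 34 genes, 10 fell outside it (Mgam, C130013H08Rik, C1qtnf6, Dusp10, Cpne4, Il1b, Gm10260, Barhl1, Kcnk13 and Lmo1); these, Trib3, Chac1 and the neighbours of Ide were named after their values were seen. Promoter sequences came from RefSeq. Replicates differed by more than sampling noise (chi-square per degree of freedom of 7.29 or more), so none was counted as a copy. Reads from a gene and an antisense partner, and from the near-identical Ins1 and Ins2, may not be fully separated.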

Additional observations from a re-analysis of the deposited data

Results flagged for a closer look

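In 6 of 117 groups of 4 values, 1 library lay far from the other 3, and chance alone flags about 1 in 20 groups. These libraries were day 5 replicate 4 for Mgam (3.68 log2 CPM), day 13 replicate 2 for Dusp8 (3.71), day 33 replicate 4 for Cpne4 (2.48), day 33 replicate 2 for Plekhh1 (4.52), day 13 replicate 1 for Gm10260 (-3.54, the floor of the table) and day 13 replicate 3 for Nme4 (2.02).

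The change from day 5 to day 33 differed between high-fat diet and chow for Pole (-2.44), Per1 (-1.57) and Trib1 (-1.05), as high-fat minus chow in log2. On high-fat diet, the change in C57BL/6J minus that in BALB/cJ was -1.29 for Avpr1b, -1.58 for Slc38a5, 0.93 for Pcsk6 and 2.12 for Dcdc2a. Minus that in DBA/2J it passed the test for 1726 genes, and among protein-coding genes outside the lowest 25% by level the 6 with the lowest p were Ide (-1.14), Btaf1 (-1.01), Plekhh1 (-0.80), Etv1 (-1.12), Crmp1 (0.70) and Wwp1 (-0.75). The antisense gene C130013H08Rik had a lower p than these, with a difference of -1.27 (limma, adjusted p = 0.000224).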

How the results depend on the processing

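No paired analysis was possible because the days compared share no title number within a diet, nor do the diets at day 5, and replicate numbers were given here in order of deposit. High-fat and chow libraries share title numbers at days 13 and 33. The title number covariate was fitted on C57BL/6J libraries only, so the comparisons with DBA/2J and BALB/cJ have no such fit. Between days 33 and 5 on high-fat diet (34 genes called), 20 were called from C57BL/6J libraries only, 2 from the 12 libraries only, 1360 when libraries were weighted (array weights) and 0 with a title number covariate; leaving out 1 library gave 5 to 56. The other settings gave 27 to 41. For day 13 against 5 (25 genes) the counts were 3, 0, 953 and 0 in the same order, 15 with 1 CPM added, 45 with the stellate score and 1 without both day 13 replicates 3 and 4; leaving out 1 library gave 3 to 70. For day 33 against 13 (6 genes) they were 3, 0, 1270 and 0, then 10 with quantile normalization, 45 with the acinar score and 0 without both day 13 libraries; leaving out 1 library gave 0 to 60. For chow (18 genes) the count was 7 without the lowest 25% of genes, 73 with 1 CPM added, 85 with voom, 921 with array weights, 42 with the acinar score, 0 with a title number term and 0 with Arntl; leaving out 1 library gave 0 to 38. For high-fat minus chow (3 genes) it was 7 with voom, 889 with array weights, 0 with a title number term and 0 with Arntl; leaving out 1 library gave 0 to 6. Against DBA/2J (1726 genes) it was 6130 with array weights and 727 with Arntl; leaving out 1 library gave 119 to 3850. Against BALB/cJ (4 genes) it was 9 without the lowest 25% of genes, 12 with 1 CPM added, 2 with quantile normalization, 8 with voom, 21 with array weights, 11 with the acinar score and 9 with the stellate score; leaving out 1 library gave 0 to 19.

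With the title number as covariate, called values changed sign for 2410021H03Rik (1.82), Atad2 (0.028), Crmp1 (-0.039), Il1b (-0.26) and Oxtr (0.42) at day 13 against 5 and for Gm10260 (-0.04) at day 33 against 5. The cause was not tested. No other setting turned a called value. The fit with array weights gave day 33 replicate 1 a weight of 0.212. The scaling alternatives shifted the median change by at most 0.0052.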
